A study of Homo sapiens with 12 samples.

Results

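The ERBB system was examined through 10 genes chosen by name, 3 receptor genes (EGFR, ERBB2 and ERBB3) and 7 ligand genes (NRG1, NRG4, AREG, EREG, HBEGF, TGFA and BTC), out of 57815 genes in the expression files. RNA was sequenced from 3 established human non-small cell lung cancer lines, each marked by the labels as positive for a KEAP1 mutation, namely the lung adenocarcinoma lines A549 and H2023 and the lung large cell carcinoma line H460. KEAP1 marks the transcription factor NRF2 for degradation, so cells with mutated KEAP1 hold much NRF2, and the comparison asks which transcripts depend on it. Each line received control siRNA or siRNA against NRF2 for 48 h, with 2 libraries in each of the 6 groups. The library numbered 0 of each NRF2 siRNA group was made with siRNA 28 and the library numbered 1 with siRNA 30, so the spread within such a group also holds the difference between siRNAs. Control duplicates were separate biological samples, whereas no siRNA was repeated within a line. A549 libraries were made after depletion of ribosomal RNA, and those of the other lines from polyA RNA, so A549 levels are not set against theirs.

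ERBB receptors are membrane tyrosine kinases that pair with each other when a ligand binds, and the paired kinases switch on the RAS-ERK and PI3K-AKT routes. The ligands are made as membrane-anchored precursors and are set free by ADAM proteases. Most of them carry a single EGF-like domain, held together by 6 cysteines, that fits into the receptor. In lung adenocarcinoma, mutated EGFR is a well-known driver and drug target.

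The stretch coding for the EGF-like domain, from its first to its last cysteine codon, is shown for NRG4, TGFA and EPGN. NRG4 is the neuregulin that fell with NRF2 siRNA, and EPGN is a further EGFR ligand described with the pathway genes. TGFA had the largest difference between the NRF2 siRNA libraries among the EGFR ligands tested. That difference did not pass (limma, adjusted p = 0.136), and siRNA and library number cannot be told apart. Each stretch spans 2 coding exons of GRCh37 and is printed 5′ to 3′ on the coding strand, with the 6 cysteine codons in capitals. They lie at chr15:76254285-76301620 on the minus strand for NRG4, chr2:70683590-70692824 on the minus strand for TGFA and chr4:75177946-75178765 on the plus strand for EPGN.
NRG4: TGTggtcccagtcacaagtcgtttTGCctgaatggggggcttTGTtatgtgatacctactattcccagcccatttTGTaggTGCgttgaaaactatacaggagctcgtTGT
TGFA: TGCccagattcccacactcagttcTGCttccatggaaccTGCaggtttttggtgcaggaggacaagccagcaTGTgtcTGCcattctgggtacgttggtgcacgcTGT
EPGN: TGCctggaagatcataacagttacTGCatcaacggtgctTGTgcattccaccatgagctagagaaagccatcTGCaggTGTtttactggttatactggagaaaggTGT
In TGFA and EPGN, as in AREG, EREG, HBEGF and BTC, the cysteine codons were separated by 7, 4, 10, 1 and 8 other codons. In NRG4 the second gap held 5 codons, so its stretch had 37 codons in place of 36.

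The knockdown and the identity of the lines were checked first. NFE2L2, the gene of NRF2, fell in every line, by 2.24 to 3.86 on the log2 scale, and its adjusted p was 0.0178, 0.00529 and 0.0111 for A549, H2023 and H460 (limma with Benjamini-Hochberg adjustment). Between 12732 and 13909 genes reached 1 FPKM in a library, and read totals per library are not given in the sources used here. All 6 epithelial markers were at 1 FPKM or more in every A549 and H2023 library, whereas EPCAM and CDH1 stayed between 0.149 and 1.19 FPKM in H460. The lung markers NKX2-1, NAPSA, SFTPB and SFTPC were at most 1.25 FPKM in any library, so these defining markers were at or near 0 in the lines labelled lung adenocarcinoma as well. Of the blood markers, PTPRC and CD3E were at most 0.470 FPKM in any library, and CD14 was at 1.77 and 5.49 FPKM in H460 controls and at 17.6 and 19.4 FPKM with NRF2 siRNA. The endothelial sum was at most 0.140 FPKM and the fibroblast sum at most 5.64 FPKM. The mitochondrial share of the FPKM sum was 8.56% and 13.1% in H460 controls against 20.8% and 26.0% with NRF2 siRNA, 12% and 18.1% against 17.4% and 22.8% in H2023, and between 0.892% and 1.56% in A549. The summed level of the epithelial markers was 2810 and 3386 FPKM in H2023 controls against 6012 and 6336 FPKM, 1154 and 1346 FPKM against 1763 and 2633 FPKM in H460, and between 6991 and 10220 FPKM in A549. The part of these shifts in the results below was not tested, and in bulk RNA fewer cells with a transcript and less transcript per cell cannot be told apart.

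**Figure D1:**
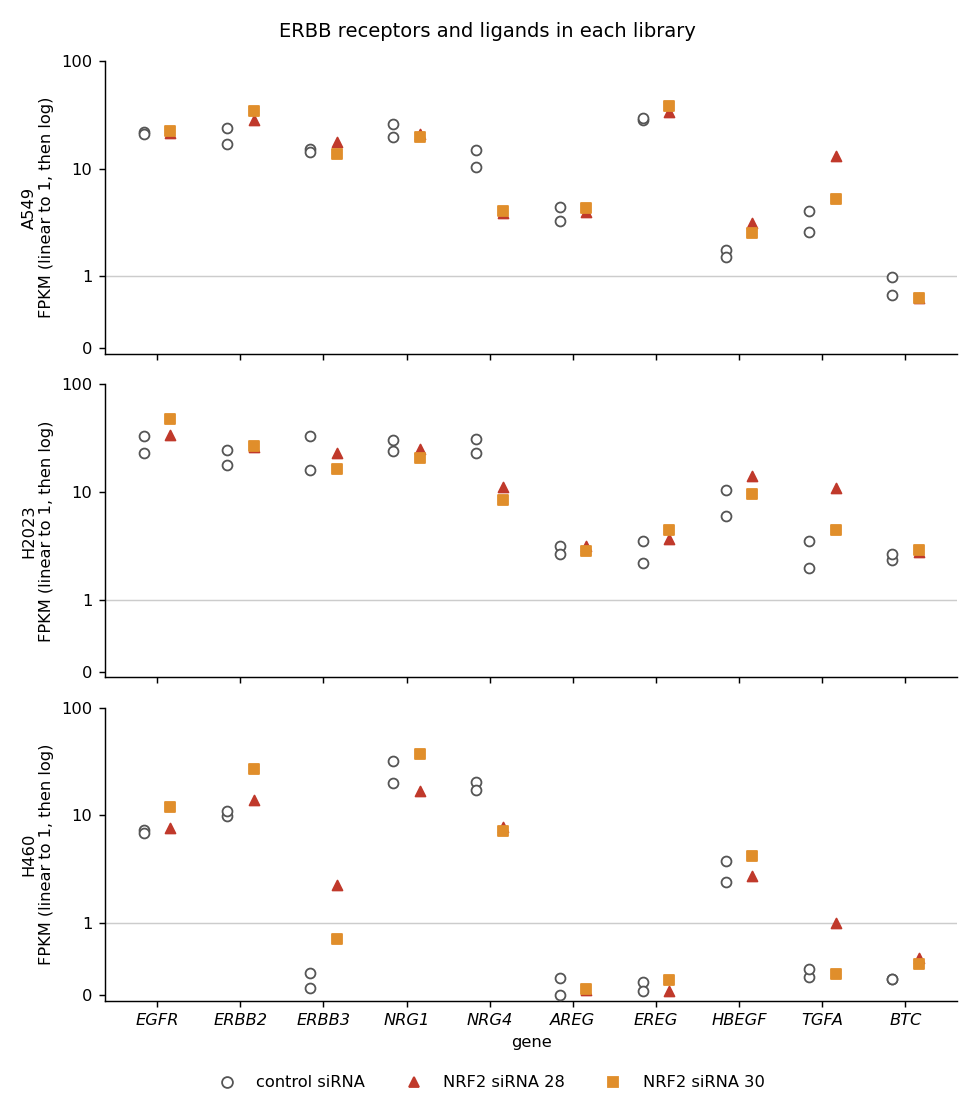
FPKM of the 10 ERBB receptor and ligand genes in each of the 12 libraries, 1 panel per line, on an axis that is linear up to 1 FPKM and logarithmic above it. Circles are control siRNA, triangles NRF2 siRNA 28 and squares NRF2 siRNA 30, and NRG4 is the only gene at 1 FPKM or more whose NRF2 siRNA libraries lie below both control libraries in all 3 panels.

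Before knockdown the lines made different ERBB sets. FPKM is scaled to transcript length, so genes can be ranked within a line, although shared reads make this approximate. In A549 controls, EREG (epiregulin) had the highest mean level at 29.1 FPKM, followed by NRG1, EGFR and ERBB2 at 22.7, 21.3 and 20.5 FPKM, whose replicate ranges overlapped. ERBB3 at 14.7 and NRG4 at 12.6 FPKM overlapped each other and lay below these, and AREG (3.86), TGFA (3.30), HBEGF (1.64) and BTC (0.868 FPKM) were lowest, with only AREG and TGFA overlapping. In H2023 controls, EGFR, NRG1, NRG4, ERBB3 and ERBB2 lay between 21.3 and 28.2 FPKM, each overlapping its neighbour in rank. HBEGF followed at 8.27 FPKM, and AREG, EREG, TGFA and BTC lay between 2.5 and 2.91 FPKM with overlapping ranges. In H460 controls, NRG1 at 25.9 and NRG4 at 18.8 FPKM overlapped and were highest, above ERBB2 at 10.5, EGFR at 7.09 and HBEGF at 3.11 FPKM. The remaining 5 genes were at most 0.357 FPKM in either H460 control library.

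The H460 and H2023 control libraries differed in 3 of the 5 members that were at 1 FPKM or more in all 4 of them (limma, adjusted p under 0.05). Of all genes tested, 48.8% were called, 24.2% lower in H460 and 24.6% higher. Those shares also cover genes at 1 FPKM or more in 1 line only, so they are over a wider set than these 5 members. The H460 minus H2023 difference of EGFR was −1.83 ± 0.21 on the log2(FPKM + 1) scale (adjusted p = 0.00144), that of ERBB2 −0.94 ± 0.20 (adjusted p = 0.0109) and that of HBEGF −1.15 ± 0.31 (adjusted p = 0.0248). The other 5 members passed the filter on low values only through the H2023 libraries, so they had to come out lower in H460 and their values are a description. ERBB3 was at 33.0 and 15.9 FPKM in H2023 against 0.312 and 0.1 FPKM in H460, and AREG, EREG, TGFA and BTC had means between 2.5 and 2.91 FPKM in H2023 against 0.119 to 0.303 FPKM in H460. The neuregulins did not pass, with −0.11 ± 0.25 for NRG1 (adjusted p = 0.744) and −0.50 ± 0.19 for NRG4 (adjusted p = 0.0764). ERBB2 lost its call without H2023 control library 0 (adjusted p = 0.0773) and HBEGF without H2023 control library 1 (0.128). NRG4 passed in 4 of 11 alternatives, at −0.70 without mitochondrial genes in the scaling (adjusted p = 0.0166), with upper quartile scaling (0.0347), with the replicate block (0.0408) and without H460 control library 0 (0.0442).

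**Figure D2:**
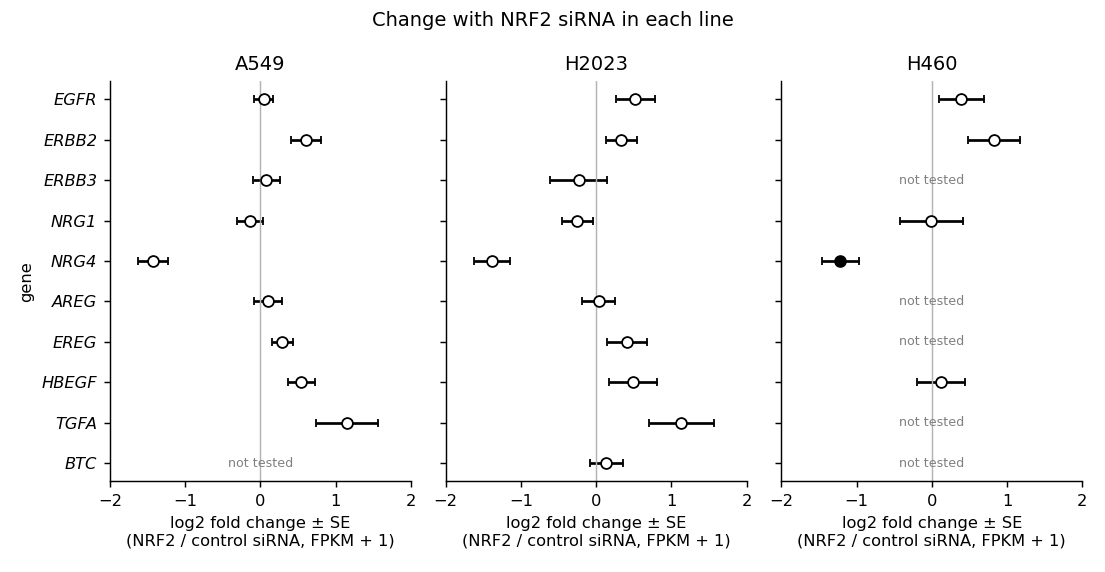
Log2 fold change of each gene, NRF2 siRNA over control siRNA on FPKM + 1, with its standard error, in A549, H2023 and H460 (2 against 2 libraries each). The filled point is past an adjusted p of 0.05, open points are not, and NRG4 in H460 is the filled one, at −1.22.

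The receptor genes showed no call in any single line. EGFR, which binds EGF, TGFA and amphiregulin, was at 21.8 and 20.9 FPKM in A549 controls and at 21.6 and 22.5 FPKM with siRNA 28 and siRNA 30. In H2023 it was at 23.2 and 33.2 FPKM against 33.8 and 47.9 FPKM, while H460 had 7.37 and 6.81 FPKM against 7.64 and 12.1 FPKM. The groups overlapped in A549 and stood apart, with higher values after NRF2 siRNA, in H2023 and H460. The log2 fold changes were 0.043 ± 0.13, 0.52 ± 0.26 and 0.39 ± 0.30 (adjusted p = 0.920, 0.386 and 0.402, limma). In A549 the sign turned, to −0.059, when mitochondrial genes were left out of the scaling. EGFR lies at chr7:55086710-55279321 on the plus strand of GRCh37.

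ERBB2, which has no ligand of its own and serves as a partner of the other receptors, was at 23.8 and 17.1 FPKM in A549 controls and at 28.7 and 34.3 FPKM with NRF2 siRNA. In H2023 the values were 24.5 and 18.0 FPKM against 26.4 and 27.1 FPKM, and in H460 9.94 and 11 FPKM against 13.9 and 26.7 FPKM. Every NRF2 siRNA library thus lay above both control libraries of its line. A549, H2023 and H460 changed by 0.61 ± 0.20, 0.33 ± 0.21 and 0.83 ± 0.34 (adjusted p = 0.298, 0.476 and 0.147). ERBB2 in H460 passed without the siRNA 28 library, at 1.27 with an adjusted p of 0.0150, and with all libraries in the fit of 12 (0.0463). Without the siRNA 30 library it was 0.38 and did not pass (0.336). MIEN1 and PGAP3, which overlap ERBB2 (chr17:37844167-37886679, GRCh37) on the opposite strand, changed by −0.43 to 0.45 with adjusted p-values of 0.495 or more.

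ERBB3, the neuregulin receptor with a weak kinase that recruits PI3K, was at 15.3 and 14.2 FPKM in A549 controls against 17.8 and 13.7 FPKM, and at 33.0 and 15.9 FPKM in H2023 controls against 23.1 and 16.3 FPKM. The groups overlapped in both lines, and the changes of 0.081 ± 0.17 and −0.23 ± 0.37 did not pass (adjusted p = 0.884 and 0.806). ERBB3 lies at chr12:56470583-56497289 on the plus strand of GRCh37, where a further coding gene model overlaps it on the same strand, so its values are uncertain. The direction in A549 turned to −0.020 with the scaling without mitochondrial genes. In H460, ERBB3 was at 0.312 and 0.1 FPKM in controls and at 2.24 and 0.772 FPKM with siRNA 28 and siRNA 30, higher in both but too low for the test. The fourth receptor gene of the family, ERBB4, was at most 0.186 FPKM in any library.

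NRG4 was the member that fell. It encodes neuregulin 4, a ligand of ERBB4, and was one of the genes the study picked from these libraries, so its direction here is not independent evidence. In A549 it was at 14.8 and 10.4 FPKM in control libraries and at 3.88 and 4.10 FPKM with siRNA 28 and siRNA 30. In H2023 it was at 31.0 and 23.3 FPKM against 11 and 8.49 FPKM, and H460 had 20.4 and 17.2 FPKM against 7.77 and 7.24 FPKM. No NRF2 siRNA library reached a control library in any line, and the mean was at 31.6% of the control mean (A549), 36.0% (H2023) and 39.9% (H460).

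On the log2(FPKM + 1) scale the change of NRG4 was −1.43 ± 0.20 for A549 (adjusted p = 0.0662), −1.38 ± 0.23 for H2023 (adjusted p = 0.0840) and −1.22 ± 0.25 for H460 (adjusted p = 0.0308). In these fits on FPKM it was therefore called in H460 only. The study, by its own comparison of these libraries, lists NRG4 among the genes significantly decreased by NRF2 knockdown in all 3 lines. The size of the change was similar in the other lines here, and an F test in limma of the difference between lines gave an adjusted p of 0.898. Averaged over the 3 lines in 1 fit of 12 libraries, the change was −1.34 ± 0.13 (adjusted p = 0.0001), and it passed under all 20 alternatives of that fit. In A549 the call appeared without the siRNA 28 library (adjusted p = 0.0458) or the siRNA 30 library (0.0439), and in H2023 likewise (0.00313 and 0.0109). In H460 the call was lost without control library 0 (0.250) or control library 1 (0.168). The 2 siRNAs differed by 0.12 ± 0.17 in their NRG4 level (adjusted p = 0.718).

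The NRG4 gene lies at chr15:76228310-76352136 on the minus strand of GRCh37 and overlaps FBXO22 on the opposite strand. The libraries were strand-specific, but whether the counting used strand is not given in the sources used here. FBXO22 changed by −0.18 ± 0.17, 0.058 ± 0.22 and −0.27 ± 0.40 in A549, H2023 and H460 (adjusted p = 0.702, 0.929 and 0.683).

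**Figure D3:**
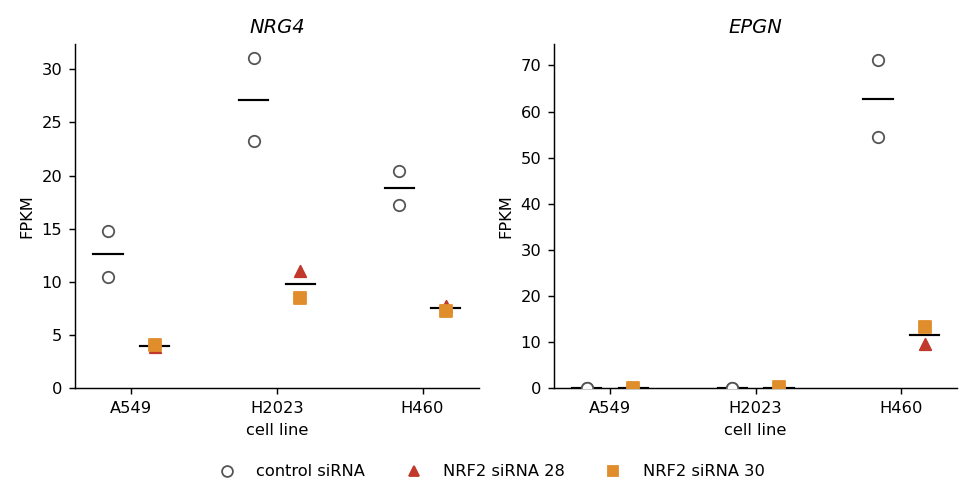
FPKM of NRG4 (left) and EPGN (right) in each library of A549, H2023 and H460, with control siRNA as circles, siRNA 28 as triangles, siRNA 30 as squares and the group mean as a line. NRG4 lies lower with NRF2 siRNA in all 3 lines, and EPGN lies lower with both siRNAs in H460.

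The NRG4 promoter is shown because NRG4 fell with NRF2 siRNA, and NRF2 is known to bind antioxidant response elements. The sequence is the RefSeq window on GRCh38.p14 from 250 bases before to 50 bases after the start of transcription, chr15:76012375-76012674 on the minus strand, with a match to the core TGACNNNGC in capitals at bases 213 to 221.
NRG4 promoter: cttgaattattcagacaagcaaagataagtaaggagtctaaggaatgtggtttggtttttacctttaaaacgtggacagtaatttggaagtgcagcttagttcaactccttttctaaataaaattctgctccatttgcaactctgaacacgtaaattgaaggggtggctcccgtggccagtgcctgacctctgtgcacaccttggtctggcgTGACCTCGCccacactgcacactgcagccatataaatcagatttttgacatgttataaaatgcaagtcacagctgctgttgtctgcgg
The table held 10 promoters of 8 members, and ERBB3 and NRG1 were not among them. NRG4 was the only one of the 10 with this core on either strand, a motif that 13.3% of all 35116 promoters of that length hold. The AP-1 motif TGANTCA was in 2 of the 10, an EGFR and the ERBB2 promoter (7.71% of all promoters), the C/EBP motif TTGCNNAA in 1, an EGFR promoter (10.5%), and the TEAD motif GGAATG in 3, those of EREG, EGFR and NRG4 (14% of all). These are matches of letters in a window and not measured binding sites.

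A further coding gene model overlaps the NRG1 gene on the same strand of GRCh37, so NRG1 values are uncertain. NRG1, the neuregulin that binds ERBB3 and ERBB4, did not follow NRG4. It was at 25.9 and 19.6 FPKM in A549 controls against 21.2 and 19.7 FPKM, at 24.3 and 30.7 FPKM in H2023 controls against 25.1 and 20.8 FPKM, and at 32.0 and 19.8 FPKM in H460 controls against 16.9 and 37 FPKM. The groups overlapped in every line, and in H460 the siRNA 28 library was the lowest and the siRNA 30 library the highest of the 4. The changes were −0.13 ± 0.17, −0.25 ± 0.20 and −0.0070 ± 0.42 (adjusted p = 0.791, 0.591 and 0.995), with the sign in H460 turned to 0.12 by upper quartile scaling and to 0.14 by the scaling without mitochondrial genes.

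Among the ligands of EGFR, TGFA (transforming growth factor alpha) had its highest level with siRNA 28 in every line. It was at 4.04 and 2.56 FPKM in A549 controls against 13.2 FPKM with siRNA 28 and 5.28 FPKM with siRNA 30. In H2023 it was at 1.97 and 3.48 FPKM against 10.8 and 4.43 FPKM, while H460 had 0.248 and 0.357 FPKM against 1 and 0.293 FPKM. Both siRNA libraries lay above the controls in A549 and H2023, with siRNA 28 the higher, and in H460 only siRNA 28 did. The changes of 1.16 ± 0.41 and 1.14 ± 0.44 did not pass (adjusted p = 0.326 and 0.287). Without the siRNA 30 library they were 1.75 in A549 and 1.70 in H2023 and passed, with adjusted p-values of 0.0339 and 0.0111. Without the siRNA 28 library they were 0.57 in both lines and did not pass (0.348 and 0.289). TGFA spans chr2:70674416-70781325 on the minus strand of GRCh37.

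HBEGF, a heparin-binding ligand of EGFR and ERBB4, was at 1.77 and 1.51 FPKM in A549 controls against 3.16 and 2.54 FPKM, at 6.06 and 10.5 FPKM in H2023 controls against 14.1 and 9.58 FPKM, and at 3.81 and 2.40 FPKM in H460 controls against 2.71 and 4.23 FPKM. The groups stood apart only in A549. HBEGF (chr5:139712428-139726188, minus strand, GRCh37) changed by 0.54 ± 0.18, 0.49 ± 0.32 and 0.12 ± 0.32 (adjusted p = 0.298, 0.503 and 0.825).

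EREG, AREG, EPGN and BTC sit near each other on chromosome 4, EPGN at 75174187 to 75182506, EREG at 75230862 to 75254466, AREG at 75310853 to 75320722 and BTC at 75669969 to 75719733 (GRCh37). EREG was at 28.6 and 29.6 FPKM in A549 controls against 33.5 and 38.5 FPKM, and at 2.18 and 3.52 FPKM in H2023 controls against 3.63 and 4.49 FPKM. Both groups stood apart, but the changes of 0.29 ± 0.14 and 0.41 ± 0.27 did not pass (adjusted p = 0.443 and 0.501), and EREG was at most 0.213 FPKM in H460.

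AREG (amphiregulin) was at 4.44 and 3.28 FPKM in A549 controls against 3.99 and 4.36 FPKM, and at 3.13 and 2.69 FPKM in H2023 controls against 3.15 and 2.86 FPKM, with overlapping groups in both. The changes were 0.10 ± 0.19 and 0.037 ± 0.22 (adjusted p = 0.865 and 0.953). In H460 it was listed at 0 in a control library and at most 0.240 FPKM in the other libraries. AREGB, an annotated near-identical copy of AREG, was at most 0.870 FPKM, and how reads were shared between the copies makes the AREG level uncertain. BTC (betacellulin) was at 2.33 and 2.67 FPKM in H2023 controls against 2.80 and 2.87 FPKM, a change of 0.14 ± 0.22 (adjusted p = 0.806), and was below 1 FPKM in every A549 and H460 library.

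The depth behind these genes was uneven. As the authors' mean normalised count over the 4 libraries of a line, NRG4 stood at 309, 278 and 227 in A549, H2023 and H460, and EGFR at 6343, 5119 and 1027. AREG had 132, 26.0 and 1, and ERBB3 in H460 had 11.5. AREG and ERBB3 were below the level required for testing in H460.

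Counted over lines, the genes tested gave few calls. In A549, 0 of 9 tested genes passed (limma, adjusted p under 0.05), where 0.676% of all genes did, 0.554% lower and 0.122% higher, and at an unadjusted p under 0.05 NRG4 was lower and ERBB2, HBEGF and TGFA were higher, where 4.99% of all genes were lower and 8.27% higher. In H2023, 0 of 10 passed, beside 0.910% of all genes, 0.583% lower and 0.327% higher, and at an unadjusted p under 0.05 NRG4 was lower and TGFA higher, where 6.68% of all genes were lower and 10.2% higher. In H460, 1 of 5 passed, NRG4, where 14.0% of all genes passed, 6.86% lower and 7.12% higher. At an unadjusted p under 0.05 ERBB2 was higher too, where 16.7% of all genes were lower and 17.0% higher. The other 5 genes were not tested because they were below 1 FPKM in 3 or more of the 4 libraries. The share of lower genes among all H460 calls was 49.1%, and 37.9% with upper quartile scaling and 33.2% with the scaling without mitochondrial genes.

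The groups did not overlap for 5 of the 9 genes in A549 (4 higher, 1 lower), 6 of 10 in H2023 (5 higher, 1 lower) and 3 of 5 in H460 (2 higher, 1 lower). Over all genes tested, both NRF2 siRNA libraries were higher than both controls for 25.2% in A549, 27.0% in H2023 and 31.1% in H460, and lower for 20.5%, 22% and 31.6%. NRG4 accounts for the lower member in each line.

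In the fit over all 12 libraries, 5 members could be tested and 2 passed, beside 29.7% of all genes, 14.5% lower and 15.2% higher. NRG4 was the lower one, and ERBB2 was higher by 0.59 ± 0.16 on average (adjusted p = 0.0220). The ERBB2 call was lost without A549 control library 1 (adjusted p = 0.0702), A549 siRNA 30 (0.0601), H2023 control library 1 (0.0661) or H460 control library 0 (0.0553). EGFR, at 0.32 ± 0.14, and HBEGF, at 0.38 ± 0.17, did not pass (adjusted p = 0.116 and 0.119), nor did NRG1 at −0.13 ± 0.19 (0.643). By the F test in limma, 0 of the 5 differed in response between lines at the adjusted threshold, which 2.51% of all genes passed.

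**Figure D4:**
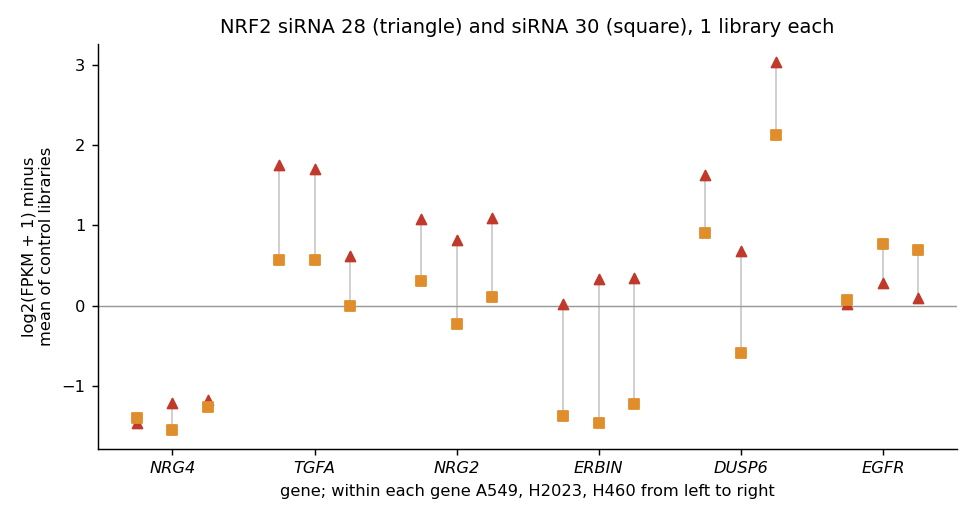
Difference of each NRF2 siRNA library from the mean of its line's 2 control libraries on the log2(FPKM + 1) scale, for NRG4, TGFA, NRG2, ERBIN, DUSP6 and EGFR, with A549, H2023 and H460 from left to right within each gene. Triangles are siRNA 28 and squares siRNA 30, and ERBIN is below its control mean only with siRNA 30.

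The siRNAs were compared with each other because each library had its own. Since siRNA 28 was always library 0 and siRNA 30 always library 1, a difference between siRNAs and one between library numbers cannot be told apart. Among the members ERBB3, NRG4 and AREG were higher in control library 0 than in control library 1 of every line. TGFA was higher in control library 0 in A549 (4.04 against 2.56 FPKM). In H2023 (1.97 against 3.48 FPKM) and H460 (0.248 against 0.357 FPKM) it was lower there. No gene passed the adjusted threshold (0.00% of all genes tested were lower and 0.00% higher with siRNA 28 than with siRNA 30 in limma), and at an unadjusted p under 0.05 7.08% were lower and 11.1% higher. Of the 10 members 2 were higher at that level, TGFA by 0.98 ± 0.19 (adjusted p = 0.136) and ERBB3 by 0.57 ± 0.18 (adjusted p = 0.206). EGFR and ERBB2 were lower with siRNA 28 than with siRNA 30 in each line, but the differences of −0.38 ± 0.16 and −0.39 ± 0.20 did not pass (adjusted p = 0.288 and 0.356).

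Outside the members, genes with a wide gap between siRNAs were picked after their values were seen. ERBIN, which encodes a scaffold that binds ERBB2, differed by 1.58 ± 0.14 (adjusted p = 0.123). From the control mean it differed by −1.38, −1.46 and −1.22 in the 3 lines with siRNA 30, and by 0.025, 0.33 and 0.34 with siRNA 28. NRG2, the neuregulin most like NRG1, differed by 0.93 ± 0.17 (adjusted p = 0.131), with siRNA 28 above siRNA 30 in each line, at 2.62 against 1.14, 5.19 against 2 and 10.7 against 4.90 FPKM.

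The genes whose pattern was most like that of NRG4 over the 12 libraries, after the mean of each line was removed, were MGST1 (Pearson r = 0.992), CLIP1 (0.982), AKR1C2 (0.979), GCLC (0.978) and PTGR1 (0.977) among 11570 genes. GCLC encodes the catalytic subunit of the enzyme that starts glutathione synthesis, and MGST1 a membrane-bound glutathione transferase. AKR1C2 has near-identical paralogs, so its values are uncertain. NFE2L2 itself ranked 43rd with r = 0.944. NRG4 had r = −0.652 with EGFR, −0.686 with ERBB2, −0.605 with HBEGF and 0.260 with NRG1. For EGFR the closest were P4HA3 (0.967), TMEM243 (0.964) and the pseudogene FAM86B3P (0.958). All points share the same 3 lines and 2 treatments, so these values describe likeness only.

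A further 72 genes of the pathway were listed in 5 groups. In A549, 0 of 66 tested genes passed in limma, with 6 lower and 10 higher at an unadjusted p under 0.05, where 0.676% of all genes passed and 4.99% were lower and 8.27% higher unadjusted. In H2023, 1 of 68 passed, FURIN, beside 0.910% of all genes. In H460, 15 of 69 passed, 5 lower and 10 higher, beside 14.0% of all genes, 6.86% lower and 7.12% higher. In H460 none of these calls was held without either control library. In H2023 the count rose without either siRNA library, and no call was held without either control library. The shares of all genes called without a library are not given, so such counts cannot be read as results about the pathway.

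**Figure D5:**
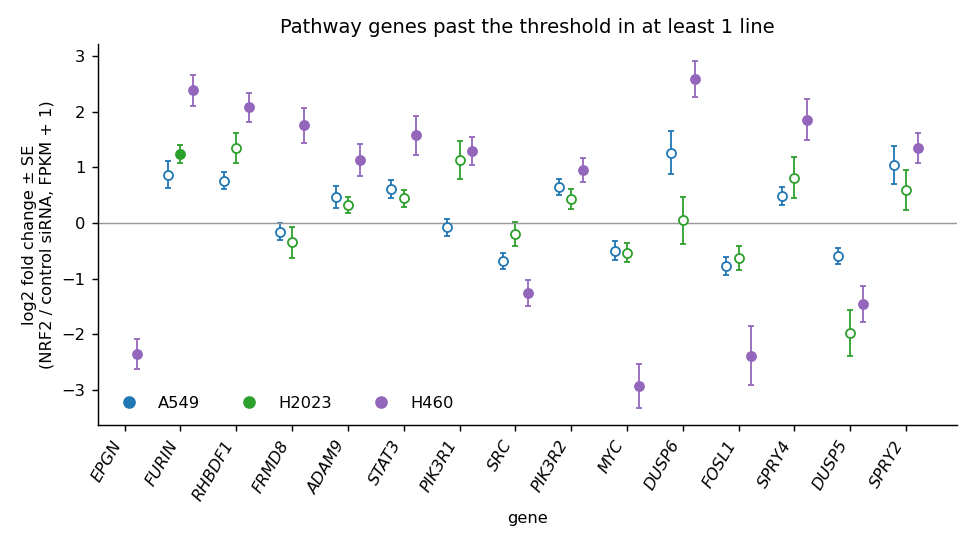
Log2 fold change with its standard error, NRF2 siRNA over control siRNA on FPKM + 1, for the 15 pathway genes that passed an adjusted p of 0.05 in at least 1 line. Blue is A549, green H2023 and purple H460, filled points passed and open points did not, and filled points are in H460 except for FURIN, which passed in H2023 too.

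Among other family genes, EPGN (epigen, an EGFR ligand) was abundant in H460. It was at 54.5 and 71.1 FPKM in H460 controls and at 9.61 and 13.4 FPKM with NRF2 siRNA, and at most 0.238 FPKM in any H2023 library. A549 libraries, made by another method, had at most 0.0391 FPKM. The change in H460 was −2.36 ± 0.27 (adjusted p = 0.0127), to 18.3% of the control mean, so EPGN was the most abundant EGFR ligand of H460 before knockdown and stayed so after it. The EPGN promoter in RefSeq had no match to TGACNNNGC. EGF was between 1.02 and 5.61 FPKM in H2023 and H460 and at most 0.319 FPKM in A549, with changes of −1.01 ± 0.29 in H2023 (adjusted p = 0.188) and 0.077 ± 0.35 in H460 (0.900). NRG3 was at most 0.0617 FPKM.

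Of the 10 genes for ligand shedding, 4 rose in H460 and 0 fell, where 7.12% of all genes were higher and 6.86% lower, with a median change of 0.82 against −0.0083 over all genes tested there. FURIN, a convertase that activates ADAM proteases, was at 22.5 and 17.9 FPKM in H460 controls against 87.1 and 136 FPKM, and rose by 2.38 ± 0.28 (adjusted p = 0.0141). RHBDF1 and FRMD8, which encode iRhom1 and a partner of iRhoms that steer ADAM17, rose by 2.08 ± 0.26 and 1.76 ± 0.32 (adjusted p = 0.0155 and 0.0247), and ADAM9 by 1.13 ± 0.29 (0.0496). The ADAM9 call was held in 6 of 12 alternatives and was lost with a pseudocount of 0.1 (adjusted p = 0.0533), with no trend (0.0611) and without siRNA 30 (0.0599), besides the losses without either control library and with no filter on low values. In H2023, FURIN rose by 1.24 ± 0.16 (adjusted p = 0.04998) and lost the call without either control library, and in A549 it changed by 0.87 ± 0.24 (adjusted p = 0.243). ADAM17, the main protease for several EGFR ligands and named here after its values were seen, changed by −0.52 ± 0.18, −1.16 ± 0.22 and −0.72 ± 0.47 in the 3 lines (adjusted p = 0.324, 0.106 and 0.334). Its groups overlapped in H460, where siRNA 28 lay at −1.45 and siRNA 30 at 0.013 from the control mean. On average over the lines ADAM17 changed by −0.80 ± 0.22 (adjusted p = 0.0221, limma), in a fit where 14.5% of all genes were lower and 15.2% higher. Of the 9 shedding genes tested in that fit, 1 was lower, ADAM17, and 4 were higher, FURIN, RHBDF1, ADAM9 and ADAM15. Over the lines, siRNA 28 minus siRNA 30 was −0.80 ± 0.24 for ADAM17 (adjusted p = 0.198), which passes an unadjusted but not the adjusted threshold of 0.05.

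Of the 11 receptor brakes, genes such as ERRFI1 and LRIG1 that limit ERBB signalling, 0 passed in any line in limma, with 1 higher in A549, 1 lower and 1 higher in H2023 and 0 in H460 at an unadjusted p under 0.05, when the lower and higher shares over all genes at that level were 4.99% and 8.27% in the first line, 6.68% and 10.2% in the second and 16.7% and 17.0% in the third. Of the 30 adaptors and kinases, 4 passed in H460, a share near the 14.0% of all genes called there, so the count says nothing particular about the group. STAT3, a transcription factor downstream of cytokine and ERBB receptors, rose by 1.57 ± 0.34, and PIK3R1 and PIK3R2, regulatory subunits of PI3K, rose by 1.30 ± 0.26 and 0.95 ± 0.22 (adjusted p = 0.0357, 0.0297 and 0.0390). PIK3R2 is uncertain, since the authors' mean normalised count for it was 0.713 in H460, 1.02 in H2023 and 2.69 in A549, while its FPKM in H460 was between 18.8 and 41.0. The tyrosine kinase gene SRC fell by 1.26 on the log2 scale, from 94.3 and 86.8 FPKM to 32.0 and 43.0 FPKM (adjusted p = 0.0266).

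The 16 output genes of the ERK pathway moved both ways in H460, with 3 lower and 3 higher of 15 tested, beside 6.86% lower and 7.12% higher among all genes. The feedback genes DUSP6, a phosphatase that turns off ERK, and SPRY4 and SPRY2 rose by 2.58 ± 0.32, 1.85 ± 0.37 and 1.34 ± 0.27 (adjusted p = 0.0156, 0.0303 and 0.0303). MYC, FOSL1 and DUSP5 fell by 2.93, 2.38 and 1.46 (adjusted p = 0.0168, 0.0360 and 0.0358). DUSP6 was at 34.5 and 32.0 FPKM in H460 controls against 279 FPKM with siRNA 28 and 148 FPKM with siRNA 30, and in H2023 at 26.8 and 23.4 FPKM against 40.6 and 16.3 FPKM, where the siRNAs lay on either side of the controls. DUSP5 was lower in both siRNA libraries of every line, by 0.60 in A549 (adjusted p = 0.191) and 1.98 in H2023 (0.119) beside 1.46 in H460. With siRNA 28, 9 of the 16 output genes were higher than with siRNA 30 at an unadjusted p under 0.05 and 0 at the adjusted threshold in limma, beside 11.1% of all genes at the unadjusted one, with a median difference of 0.55 against 0.022 over all genes tested. Control libraries 0 and 1, which hold no NRF2 siRNA, differed the same way in every line for EGR1, DUSP6, ETV4 and SPRY1. EGR1 was at 14.9 and 2.62 FPKM in A549 controls and at 32.5 and 1.13 FPKM in H460 controls. The other output genes that were higher with siRNA 28 differed both ways. IER3 was at 88.8 and 19.1 FPKM in H460 controls, but at 37.9 and 43.5 FPKM in H2023 controls. DUSP4, SPRY2, SPRY4 and PHLDA1 were also lower in control library 0 of H2023, and SPRY4 in that of A549. These genes were named after their values were seen.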

How the data were processed

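RNA sequencing libraries of 12 samples in 6 groups were analysed. The authors deposited FPKM values per library, 57815 genes each, and per line a table of mean normalised counts (a signal value), log2 fold changes with errors, Wald scores and p-values of their own comparison, of which only the mean counts were used. Per the study's methods TopHat and Cufflinks were run on hg19, whereas the submitters' processing notes name STAR 2.5.3a, cutadapt 1.15, HTSeq, Cuffnorm and DESeq2, and this was not resolved. FPKM is relative, so abundant transcripts shift the rest.

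Values under 1e-06 were set to 0. Groups were compared with limma 3.58.1 (R 4.3.3) on log2(FPKM + 1) with a mean-variance trend, for genes with FPKM of at least 1 in 2 or more libraries of the fit (of every line in the 12-library fit), with Benjamini-Hochberg adjustment over all genes tested and a threshold of 0.05. The scale understates changes of low genes. Errors are standard errors (± after a log2 value), and p-values measure the spread between 2 libraries per group. Scripts were tested on simulated data. Files were read with Python 3.11.15 and pandas 2.3.3, and 96.05% of identifiers matched a GENCODE symbol.

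All 10 members were named, with NFE2L2, AREGB, overlapping genes, pathway genes called in at least 1 line (at most 6 of a list) and the 5 genes most like NRG4 and 3 most like EGFR. Members and lists were chosen with earlier results of these data known. PECAM1 was not matched and is not used here. A further blood marker is not reported here. Alternatives were another pseudocount (0.1), filter, trend, scaling, replicate block, joint fit and leaving out each library.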

Additional observations from a re-analysis of the deposited data

Results flagged for a closer look

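A response that differed between the lines was found for 2 of 65 pathway genes tested and for 0 of 5 members, where 2.51% of all genes differed, so the count itself is near that of all genes. FRMD8, which encodes a partner of the iRhom proteins, was at 4.32 and 5.40 FPKM in H460 controls against 23.9 FPKM with siRNA 28 and 14.6 FPKM with siRNA 30, a change of 1.76 ± 0.32, while it changed by −0.16 ± 0.15 in A549 and −0.34 ± 0.28 in H2023. The F test of the difference in limma gave an adjusted p of 0.0337. MYC, a transcription factor gene under ERK control among others, changed by −2.93 ± 0.40 in H460, from 495 and 299 FPKM to 35.2 and 70.1 FPKM, beside −0.50 ± 0.17 in A549 and −0.53 ± 0.18 in H2023 (adjusted p = 0.0327). When single libraries were left out, the adjusted p lay between 0.0228 and 0.145 for FRMD8 and between 0.0152 and 0.141 for MYC, both highest without H460 control library 0. With the replicate block it was 0.0590 and 0.0703, and with no filter on low values 0.0651 and 0.0815.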

How the results depend on the processing

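Alternatives were run for the counts of members and of all listed pathway genes, and for the members, NFE2L2 and the pathway genes called in at least 1 line. They were not run for the counts of single lists, for groups that did not overlap, for ADAM17, ERBIN, NRG2, EGF or the genes overlapping NRG4 and ERBB2. In A549, the members called went from 0 to 1, NRG4 (lower), with FPKM of at least 1 required in all libraries, upper quartile scaling or 1 fit of all 12 libraries. In H2023 they went from 0 to 1 with the replicate block or the 12-library fit, and the pathway count of 1 went to 0 with a pseudocount of 0.1, no filter, no trend or upper quartile scaling, to 4 in the 12-library fit and to 6 with the replicate block. In H460 the members went from 1 to 0 and the pathway count from 15 to 0 with no filter, and the members to 2 (NRG4 and ERBB2) in the 12-library fit. The average over lines went from 2 members to 1 with no filter, and the H460 to H2023 difference in controls from 8 to 5 with no filter and to 3 with FPKM of at least 1 in all libraries, which tests fewer genes. Of those 8, 5 passed the filter only through the H2023 libraries and were not tested without either H2023 control library. The cause of the other moves was not tested. NRG4 in H460 had an adjusted p of 0.115 with no filter.

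When single libraries were left out, the members called ranged from 0 to 2 in A549, H2023 and H460, from 1 to 3 on average and from 2 to 9 for the difference in controls, with 0 for the difference in response and between siRNAs. Pathway counts ranged from 0 to 2 in A549, 0 to 14 in H2023 and 0 to 22 in H460. A group left with 1 library was assumed to vary like the others. The shares of all genes called in these fits are not given, so the counts say nothing particular about the members or the pathway genes.

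Signs turned with the scaling without mitochondrial genes for EGFR in A549 (−0.059), ERBB3 in A549 (−0.020), NRG1 in H460 (0.14) and the siRNA difference of BTC (−0.0076), and with upper quartile scaling for NRG1 in H460 (0.12) and BTC (−0.0082). With single libraries left out, signs turned for NRG1 in A549 (−0.33 to 0.057), in H460 (−0.55 to 0.54), on average (−0.31 to 0.051), between siRNAs (−0.50 to 0.18) and between control lines (−0.44 to 0.22), for ERBB3 in A549 (−0.10 to 0.26) and H2023 (−0.73 to 0.27), for AREG in A549 (−0.073 to 0.27), H2023 (−0.044 to 0.12) and between siRNAs (−0.059 to 0.044), for HBEGF in H460 (−0.13 to 0.37) and between siRNAs (−0.13 to 0.37), for BTC between siRNAs (−0.016 to 0.026), for DUSP6 in H2023 (−0.59 to 0.68) and for PIK3R1 in A549 (−0.19 to 0.028). NRG4 fell from control in every alternative run.

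In H460 the median of all genes moved from −0.0083 to 0.096 with upper quartile scaling and to 0.12 without mitochondrial genes, and the lower share of its calls from 49.1% to 37.9% and 33.2%. The deviations of libraries of the same number correlated across genes at −0.032 in A549, 0.312 in H2023 and 0.163 in H460. Libraries of the same number thus shared part of their deviations in H2023 and less in H460, and the main fits did not include this pairing. In both arms of H2023 and H460 the mitochondrial share was also higher in library 1 than in library 0. The block gave 0 members and 0 pathway genes in A549 and 1 and 19 in H460, and its H2023 counts are given above.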
